A study of Mus musculus with 42 samples.

Results

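The genes described here are 5 interferon-linked members of the poly(ADP-ribose) polymerase (PARP) family, Parp9, Parp10, Parp11, Parp12 and Parp14, together with Dtx3l, which encodes a ubiquitin ligase that works in a complex with PARP9. They are 6 of the 27179 genes in a table of RNA-sequencing read counts from mouse spermatogonia and were found there by their Entrez gene identifiers. The set was chosen by its levels over the 12 libraries, in which Parp12 and Parp14 followed different patterns, so the levels and differences between groups are given as a description and carry no test.

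Spermatogonia were isolated from the testes of C57BL/6J male pups at 10 days postpartum with magnetic beads against c-Kit, and then against Thy1 on the cells that had passed through. The c-Kit+ cells are differentiating spermatogonia and the Thy1+ cells are enriched for undifferentiated spermatogonia. Control mice were Ddx4-Cre; Chd8 +/F and mutant mice, called CKO in the labels, were Ddx4-Cre; Chd8 F/-. Thus every library came from mice that carry Cre under the germ cell gene Ddx4 and at least 1 floxed allele of Chd8, the gene of a chromatin remodeler of the CHD family, while the mutants had a null allele in place of the wild-type allele. Each of the 4 groups had 3 libraries, and testes of 3 pups were used for each analysis. Cre acts in germ cells, so the somatic cells of mutants keep a floxed allele beside the null allele, and those of controls keep both alleles. The 30 chromatin immunoprecipitation samples of the series were not analysed here.

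PARP enzymes transfer ADP-ribose from NAD+ to other molecules. PARP10, PARP11, PARP12 and PARP14 attach single ADP-ribose units, whereas PARP9 has little such activity by itself and acts with DTX3L. The genes are best known as interferon-stimulated genes: type I and type II interferons signal through their receptors, JAK kinases and STAT factors, and the STAT complexes bind response elements near the starts of target genes. PARP9 and PARP14 also carry macrodomains, which bind ADP-ribose, and PARP12 carries zinc fingers and WWE domains.

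Parp14 (Entrez 547253, chr16:35832878-35871382 in mm10, - strand), Dtx3l (209200, chr16:35926515-35939027, - strand) and Parp9 (80285, chr16:35938470-35972621, + strand) lie next to each other on chromosome 16. They are 3 of the 4 genes of the table within this span of 139744 bases. The starts of Parp9 and Dtx3l are only 557 bases apart, on opposite strands, and 334 bases of their exons overlap. Parp12 (243771, chr6:39086412-39118349, - strand) and Parp11 (101187, chr6:127453723-127494239, + strand) are far apart on chromosome 6, and Parp10 (671535, chr15:76232995-76243440, - strand) is on chromosome 15.

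**Figure D1:**
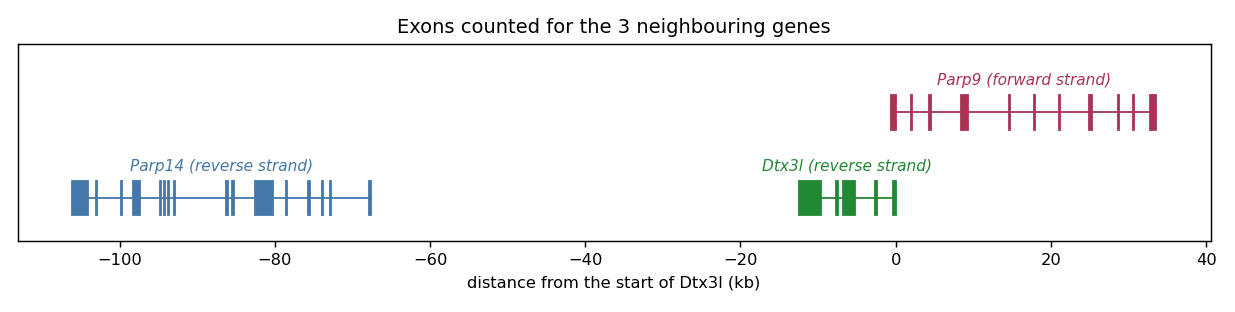
The counted exons of Parp14, Dtx3l and Parp9 are drawn as boxes against the distance from the start of Dtx3l in kilobases. Parp9 and Dtx3l run in opposite directions from first exons that overlap, with starts 557 bases apart, and Parp14 lies more than 60 kb from both starts.

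The table was counted without the strand option, so reads of Parp9 and Dtx3l from the shared 334 bases cannot be assigned to either gene, and with the default settings of the counting tool such reads are left out. Outside these bases the exons of both genes are separate, and the other 4 genes had no overlap with another counted gene.

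RefSeq promoter windows (GRCm38.p6, 250 bases before to 50 bases after an annotated start) were at hand for 3 of the 6 genes, in 4 windows. They are shown because they place the most abundant gene, Parp12, beside Dtx3l and both starts of Parp11. Capitals mark matches to the interferon-stimulated response element (GAAA repeated after a gap of 2 bases) or to the GAS element bound by STAT dimers (TTCNNNGAA), searched on both strands.
Parp12 (chr6:39118300-39118599, - strand): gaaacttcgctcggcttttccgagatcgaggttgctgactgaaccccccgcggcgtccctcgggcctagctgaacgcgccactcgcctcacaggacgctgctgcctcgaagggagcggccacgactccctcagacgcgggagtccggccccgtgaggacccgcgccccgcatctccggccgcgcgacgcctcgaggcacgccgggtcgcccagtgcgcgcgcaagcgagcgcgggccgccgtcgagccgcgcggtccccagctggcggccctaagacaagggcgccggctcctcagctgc
Dtx3l (chr16:35938978-35939277, - strand): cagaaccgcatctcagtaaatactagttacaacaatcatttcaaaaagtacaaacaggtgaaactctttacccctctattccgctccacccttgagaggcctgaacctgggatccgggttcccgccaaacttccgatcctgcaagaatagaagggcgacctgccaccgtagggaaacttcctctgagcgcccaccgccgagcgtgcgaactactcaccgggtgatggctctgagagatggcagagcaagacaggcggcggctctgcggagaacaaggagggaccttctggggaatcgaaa
Parp11 upstream start (chr6:127446590-127446889, + strand): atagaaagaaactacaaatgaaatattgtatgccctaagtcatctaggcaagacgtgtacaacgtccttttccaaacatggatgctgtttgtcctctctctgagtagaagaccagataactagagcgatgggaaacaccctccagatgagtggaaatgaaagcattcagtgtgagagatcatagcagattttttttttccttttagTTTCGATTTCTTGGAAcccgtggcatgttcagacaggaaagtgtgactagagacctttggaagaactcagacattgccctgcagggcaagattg
Parp11 downstream start (chr6:127453377-127453676, + strand): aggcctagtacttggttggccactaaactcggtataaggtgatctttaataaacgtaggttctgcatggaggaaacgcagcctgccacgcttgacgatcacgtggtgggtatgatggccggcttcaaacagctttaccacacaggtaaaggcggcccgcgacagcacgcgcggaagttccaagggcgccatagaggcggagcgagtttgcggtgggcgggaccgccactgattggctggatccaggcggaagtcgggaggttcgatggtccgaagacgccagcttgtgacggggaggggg
The Parp12 window was rich in CpG, with 46 CpG dinucleotides and a GC content of 73.7%, against medians of 7 and 52.7% over the 32851 windows of the table. Dtx3l had 17 CpG and the downstream Parp11 window 25, while the upstream Parp11 window had 5. Only this last window held a match: TTTCGATTTC, which reads as the response element on the other strand, began 44 bases before the start, and the GAS match TTCTTGGAA began 37 bases before the start and overlaps it. Such letters occurred in 3.44% and 8.3% of all windows, respectively. A match is a description of the letters and not a binding site. Both Parp11 windows, and so both starts, lie before the first exon counted for Parp11, which begins at position 127453723. The counts therefore do not show which start was used.

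Each library held 32266861 to 45396233 counted reads. Most low counts were even, as when both mates of a pair are counted, so independent molecules may be fewer than reads. Chd8 was examined before any other gene. It stood at 259 to 278 CPM (reads of a gene scaled to a fixed library size) in control Thy1+ libraries, 258 to 298 in mutant Thy1+, 263 to 305 in control c-Kit+ and 297 to 316 in mutant c-Kit+. The deletion removes an internal block of exons and the table counts the whole gene, so these values do not check the genotype. The sorting antigens followed the labels: Kit was at 626 to 782 CPM in the 6 c-Kit+ libraries against 171 to 432 in the 6 Thy1+ libraries, and Thy1 at 11.7 to 17.1 against 0.436 to 1.07. The 9 germ cell markers summed to 2734 to 3204 CPM in control c-Kit+ libraries, 2036 to 2349 in mutant c-Kit+, 1761 to 2541 in control Thy1+ and 1229 to 1997 in mutant Thy1+. Somatic RNA was present too: 7 stromal genes, collagens among them, summed to 11121 to 19187 CPM in the Thy1+ libraries and 1816 to 4379 CPM in the c-Kit+ libraries. Because these are bulk samples, fewer cells of a type and less RNA per cell cannot be told apart.

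The members differed widely in abundance. On a per-length scale (RPKM, which is CPM divided by the exon length in kilobases), Parp12 led in every group, with 33.4 ± 4.74 (SD, n = 3) in control Thy1+ and 52.4 ± 3.33 in control c-Kit+ cells. Parp11 came next, at 7.49 ± 0.381 and 6.57 ± 1.10. In control Thy1+ cells Parp9 followed at 5.14 ± 0.491 and Parp10 at 4.72 ± 1.00, and these neighbours did not differ beyond their spread. Dtx3l, at 2.63 ± 0.353, and Parp14, at 2.55 ± 0.0856, were lowest and also within each other's spread. Control c-Kit+ cells kept this order, with Parp9 at 1.99 ± 0.429, Parp10 at 1.61 ± 0.359, Dtx3l at 0.951 ± 0.0685 and Parp14 at 0.608 ± 0.0154. There the ranges of Parp9 and Parp10 still overlapped, and those of Dtx3l and Parp14 no longer did.

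In mutant Thy1+ cells the levels were 24.0 RPKM for Parp12, 6.94 for Parp11, 4.53 for Parp9, 3.39 for Parp10, 1.94 for Dtx3l and 1.74 for Parp14. In mutant c-Kit+ cells they were 28.5 for Parp12, 5.90 for Parp11, 2.86 for Parp9, 2.67 for Parp10, 1.04 for Dtx3l and 0.882 for Parp14. The order was thus the same in all 4 groups, with Parp12 and Parp14 at its ends. The ranges of Dtx3l and Parp14 overlapped in both mutant groups, and those of Parp9 and Parp10 in mutant c-Kit+ but not in mutant Thy1+ cells.

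**Figure D2:**
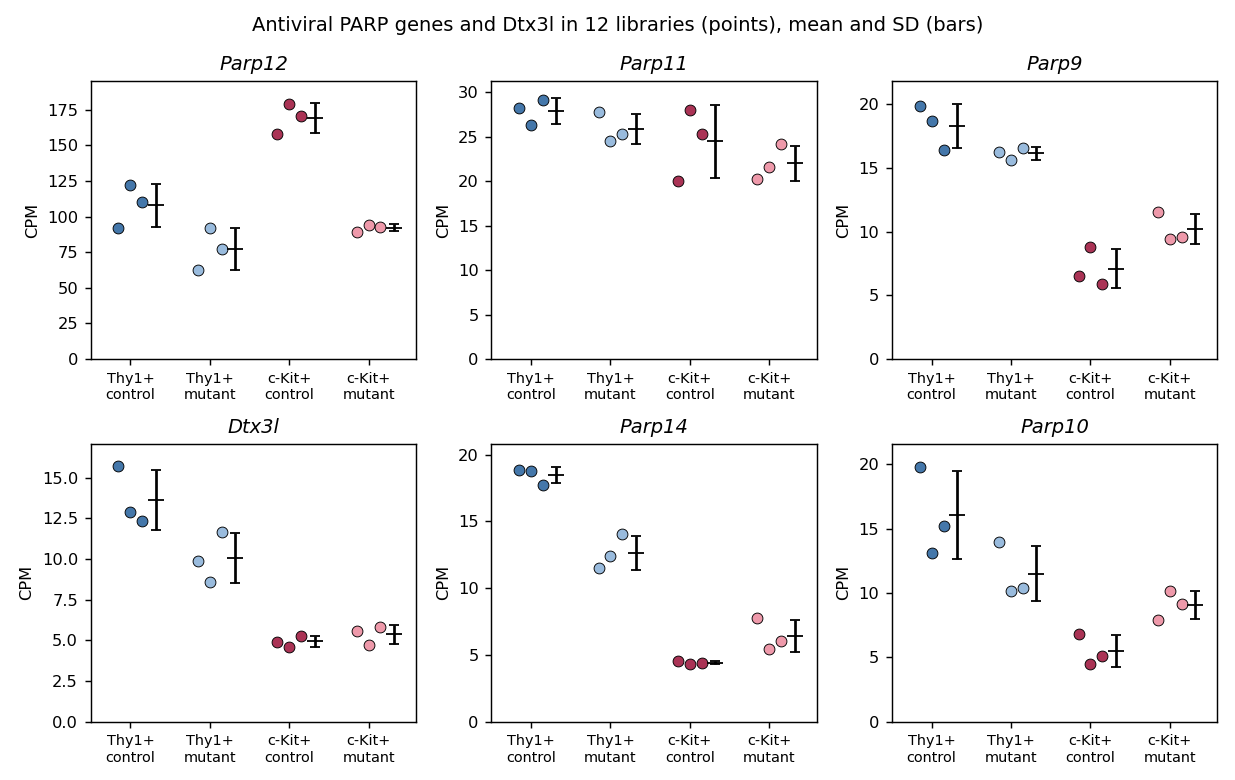
Each panel plots TMM-normalised CPM of 1 gene on a linear axis from 0, with 1 point per library and the group mean and SD beside the points. Parp12 is highest in control c-Kit+ libraries (158 to 179 CPM), whereas Parp9, Parp10, Parp14 and Dtx3l have their highest means in control Thy1+ libraries and Parp11 varies least.

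Parp12, whose protein restricts the replication of several RNA viruses, was the member with the highest level in differentiating spermatogonia. Control c-Kit+ libraries had 158, 179 and 171 CPM, and mutant c-Kit+ libraries 89.4, 93.9 and 92.9 CPM. The groups did not overlap, with means of 169 ± 10.8 in controls and 92.1 ± 2.35 CPM in mutants. Here and below, the share of all genes whose groups did not overlap in a single comparison was not counted. Control Thy1+ libraries had 91.6, 122 and 110 CPM and mutant Thy1+ libraries 62.8, 91.9 and 77.4 CPM, with 1 mutant library just above the lowest control. All 3 mutant c-Kit+ libraries thus fell within or just below the range of the control Thy1+ libraries. The log2 fold change of mutants was -0.94 ± 0.07 (SE) in c-Kit+ cells and -0.47 ± 0.17 in Thy1+ cells. Between control populations the log2 difference (Thy1+ minus c-Kit+) was -0.63 ± 0.11, and between mutant populations, whose libraries overlapped, -0.21 ± 0.13.

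Parp14, a large macrodomain protein known for its part in STAT6 signalling and macrophage responses, was higher in Thy1+ than in c-Kit+ controls, unlike Parp12. Parp9, Parp10 and Dtx3l shared this direction. Control Thy1+ libraries had 18.9, 18.8 and 17.7 CPM and control c-Kit+ libraries 4.51, 4.29 and 4.42 CPM, a 4.19-fold ratio of the means. Mutant Thy1+ libraries had 11.5, 12.4 and 14.03 CPM, all below every control. Mutant c-Kit+ libraries had 7.73, 5.43 and 6.02 CPM, all above every control. The 2 genotype differences thus pointed in opposite directions, with log2 fold changes of -0.54 ± 0.14 in Thy1+ and 0.48 ± 0.18 in c-Kit+ cells. The log2 difference between populations (Thy1+ minus c-Kit+) was 2.09 ± 0.14 in controls and 1.03 ± 0.18 in mutants. The lowest libraries rest on 150 to 155 reads of Parp14 each. Without mutant c-Kit+ library 1, the highest of its group, the c-Kit+ fold change was 0.32 on the log2 scale.

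The ratio of Parp12 to Parp14 per length gives the contrast within each library. It was 10.9, 14.6 and 13.9 in control Thy1+ and 12.2, 16.7 and 12.4 in mutant Thy1+ libraries. It was 78.5, 93.7 and 86.9 in control c-Kit+ libraries and 26.0, 38.9 and 34.6 in mutant c-Kit+ libraries. Mutant c-Kit+ libraries therefore lay between the other groups without overlapping any of them, while control and mutant Thy1+ libraries overlapped.

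Parp9 and Dtx3l, the partners with adjoining starts, were both higher in Thy1+ than in c-Kit+ controls. In c-Kit+ cells the genotypes overlapped for Dtx3l and not for Parp9. Neither gene was called there, and the 2 genes were not tested against each other. Parp9 had 19.8, 18.7 and 16.4 CPM in control Thy1+, 16.3, 15.6 and 16.6 in mutant Thy1+, 6.55, 8.81 and 5.90 in control c-Kit+ and 11.6, 9.44 and 9.58 in mutant c-Kit+ libraries. Dtx3l had 15.7, 12.9 and 12.3 CPM in control Thy1+, 9.89, 8.58 and 11.6 in mutant Thy1+, 4.92, 4.58 and 5.29 in control c-Kit+ and 5.58, 4.72 and 5.79 in mutant c-Kit+ libraries. Mutant c-Kit+ libraries lay above every control for Parp9 and overlapped the controls for Dtx3l, and mutant Thy1+ libraries lay below every control for Dtx3l and overlapped them for Parp9. The log2 fold changes in c-Kit+ cells were 0.47 ± 0.17 for Parp9 and 0.06 ± 0.16 for Dtx3l. In Thy1+ cells they were -0.18 ± 0.13 for Parp9 and -0.44 ± 0.18 for Dtx3l. Between control populations they were 1.40 ± 0.19 for Parp9 and 1.49 ± 0.17 for Dtx3l.

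Parp10 encodes an enzyme first described as a partner of MYC. Its libraries had 19.8, 13.1 and 15.2 CPM in control Thy1+, 13.96, 10.2 and 10.4 in mutant Thy1+, 6.84, 4.49 and 5.11 in control c-Kit+ and 7.91, 10.1 and 9.18 in mutant c-Kit+ cells. Mutant c-Kit+ libraries were again above every control, with a log2 fold change of 0.67 ± 0.18, and in Thy1+ cells the value was -0.47 ± 0.20 with overlapping groups. The population difference on the log2 scale was 1.57 ± 0.23 in controls and 0.38 ± 0.17 in mutants. Parp11, whose protein has been located at the nuclear envelope of spermatids, was the flattest member. It had 28.3, 26.3 and 29.1 CPM in control Thy1+, 27.7, 24.5 and 25.2 in mutant Thy1+, 20.01, 28.0 and 25.3 in control c-Kit+ and 20.2, 21.6 and 24.1 in mutant c-Kit+ libraries. Its groups overlapped in both genotype comparisons, where the log2 fold changes were -0.21 ± 0.13 in c-Kit+ and -0.10 ± 0.11 in Thy1+ cells.

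**Figure D3:**
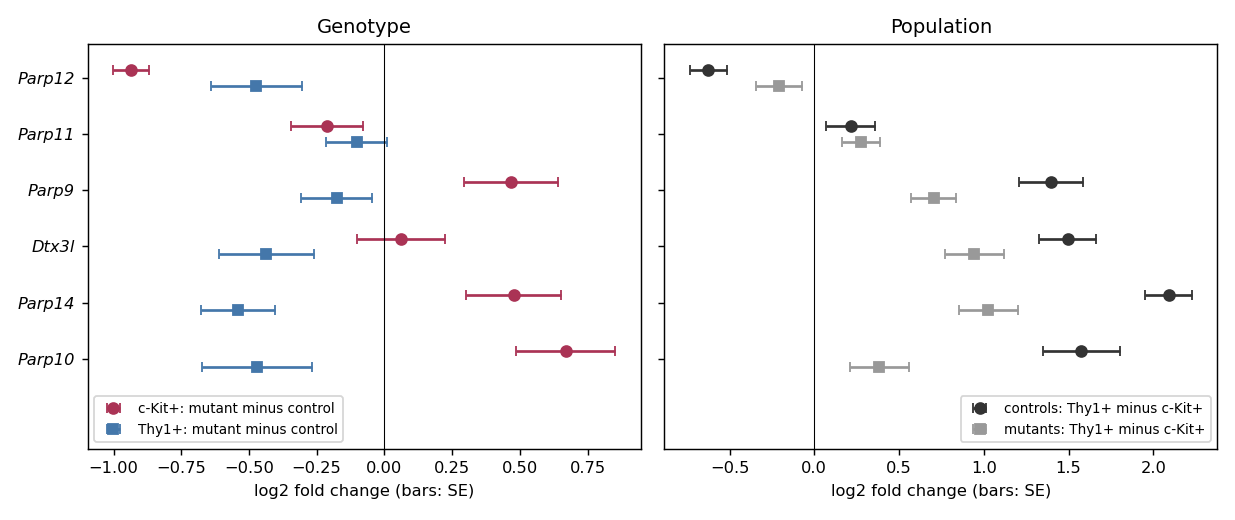
Points are log2 fold changes from edgeR with their SE, for mutant minus control in each population (left) and Thy1+ minus c-Kit+ in each genotype (right). In c-Kit+ cells Parp12 is at -0.94 while Parp10, Parp14 and Parp9 are between 0.47 and 0.67, and all 6 genes are negative in Thy1+ cells.

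All 6 genes passed the filter on low counts in every comparison. In the edgeR quasi-likelihood fit across all genes, where a call needed a false discovery rate (FDR) below 0.05 and a log2 fold change above 0.5 in size, 2 of the 6 were called in c-Kit+ cells, Parp10 as higher and Parp12 as lower, beside 22.2% of all genes tested (14.8% higher, 7.41% lower). Of the 17134 genes tested in c-Kit+ cells 8191, and 4 of the 6, had an unadjusted p under 0.05 in this fit. Differences between the genotypes were therefore common there. In Thy1+ cells 0 were called, beside 0% of all genes. There 2151 of 17416 genes and 4 of the 6 had an unadjusted p under 0.05. DESeq2 called 384 genes and a fit blocked by replicate number 1414, and each called 1 of the 6, Parp14. The main fit ignored that same-numbered Thy1+ libraries deviated together (correlations of 0.528 to 0.774). Its 0% therefore does not show that genotype differences were absent in Thy1+ cells. Between control populations 5 of the 6 were called, all but Parp11, beside 27.8% of all genes (20.7% higher, 7.08% lower), and between mutant populations 3 were called, Parp9, Parp14 and Dtx3l, all higher in Thy1+ cells, beside 20.3% (15.3% higher, 5.03% lower). These shares describe the members and test nothing about them, since the same values chose them. Comparisons that share a group, such as control c-Kit+ in the first and the third, are not independent. The call of Parp10 in c-Kit+ cells was lost without control library 3 (log2 fold change 0.62) or without mutant library 2 (0.58).

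The difference of the genotype effects between populations (c-Kit+ minus Thy1+) was 1.21 ± 0.29 on the log2 scale for Parp10, 1.08 ± 0.20 for Parp14, 0.71 ± 0.22 for Parp9, 0.56 ± 0.23 for Dtx3l, -0.40 ± 0.18 for Parp12 and -0.04 ± 0.18 for Parp11. It was called for 0 of the 6, beside 0% of all 18002 genes tested in edgeR, where 1804 genes and 4 of the 6 had an unadjusted p under 0.05. DESeq2 called 59 genes, 2 of the 6 among them. In the fit blocked by replicate number 446 genes were called, Parp10 and Parp14 among them. The same values chose the members, so these counts describe them and test nothing about them.

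Likeness of pattern was measured as the root mean square difference of log2 CPM over the 12 libraries after centring each gene, among 13486 genes. The genes most like Parp12 were Gpc2 (0.0661), which encodes a glypican, Kif15 (0.0665), a mitotic kinesin, and Abca2 (0.0787), a lipid transporter. Those most like Parp14 were less close: Rapgef3 (0.191), an exchange factor for Rap proteins activated by cyclic AMP, Bcl6b (0.195), a transcriptional repressor known from spermatogonial stem cell cultures, and Ptpn13 (0.210), a tyrosine phosphatase. Among the 15 pairs of members, Parp14 and Dtx3l were the most alike (0.263), and Parp12 and Parp14 the least (1.12). The contrast of Parp12 and Parp14 was part of the choice of the set, so its rank is not a separate result.

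The genes that add or remove ADP-ribose outside the antiviral set form small lists, whose counts in c-Kit+ cells stand beside 14.8% of all genes called higher and 7.41% called lower. Of 11 other PARP genes 1 rose and 0 fell: Parp4, the PARP of vault particles, went from 18.03 ± 1.81 to 28.9 ± 0.189 CPM (log2 fold change 0.62 ± 0.10, edgeR FDR 0.00104). The median of the 11 was 0.02 on the log2 scale, against 0.01 for all genes tested. Of 7 genes for ADP-ribose removal 1 fell, Macrod2, an ADP-ribose hydrolase with a macrodomain, from 23.3 ± 4.72 to 16.02 ± 0.763 CPM (-0.60 ± 0.14, edgeR FDR 0.00833). This call was lost without control library 2 (-0.46) and in the fit of all 12 libraries (-0.54). Of the 4 other Deltex genes, relatives of Dtx3l with known parts in Notch signalling, 3 rose: Dtx1 by 1.07 ± 0.21 (edgeR FDR 0.00318), Dtx4 by 0.95 ± 0.08 (edgeR FDR 0.000144) and Dtx3 by 0.54 ± 0.12 (edgeR FDR 0.00524) on the log2 scale. The call of Dtx3 was lost without mutant library 3 (0.43). Leaving out control library 1 or control library 3 raised the count of called other PARP genes from 1 to 3 or 2.

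The ligands that open the interferon pathway were hardly detected. Of 12 interferon genes 0 passed the filter in the c-Kit+ comparison or between control populations. Ifng, the gene of type II interferon, had at most 4 reads in any control c-Kit+ library, at most 2 in any mutant c-Kit+ library and up to 45 in a Thy1+ library. It was the sole ligand tested in Thy1+ cells, where it was not called, with 0.433 ± 0.324 CPM in controls and 0.749 ± 0.316 in mutants. Between mutant populations it passed the filter only through its Thy1+ reads. Its call there as higher in Thy1+ cells was thus set in direction by the filter and is not a separate result.

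The lists downstream of the ligands are read beside all genes tested in mutant c-Kit+ cells, of which 14.8% rose and 7.41% fell, with a median log2 fold change of 0.01. Of 12 genes for receptors and JAK-STAT signalling 3 rose and 0 fell, all of them receptor chains: Il10rb by 1.02 ± 0.11 (edgeR FDR 0.00021), Ifnar2 by 0.96 ± 0.16 (edgeR FDR 0.00115) and Ifngr2 by 0.81 ± 0.13 (edgeR FDR 0.00103) on the log2 scale. Of 9 interferon regulatory factors and feedback genes 2 rose, Irf2 by 1.13 ± 0.17 (edgeR FDR 0.000803) and Irf8, a factor of myeloid cells, by 0.79 ± 0.16 (edgeR FDR 0.00385), and without control library 1 this count was 4. Of 14 tested sensors of foreign or misplaced nucleic acid 7 rose and 0 fell, led by Tlr3, an endosomal sensor of double-stranded RNA, from 3.37 to 7.84 CPM (1.16 ± 0.19, edgeR FDR 0.00127). Sting1, the adaptor of the DNA sensor cGAS, rose by 1.04 ± 0.21 (edgeR FDR 0.00384) and Ddx58, which encodes the RNA sensor RIG-I, by 0.91 ± 0.20 (edgeR FDR 0.00525). The count for sensors was 4 without control library 2 or without mutant library 3.

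Of 36 tested interferon-stimulated effectors 19 rose and 1 fell, with a median log2 fold change of 0.67. The largest increases were those of Sp100, a nuclear body component, at 1.45 ± 0.42 (edgeR FDR 0.0192), Trim30a at 1.25 ± 0.35 (edgeR FDR 0.016) and Ddx60, a helicase linked to viral RNA sensing, at 1.14 ± 0.25 (edgeR FDR 0.00499). The decrease was that of Oas1a, a synthase of 2-5A that activates RNase L, at -1.66 ± 0.50 (edgeR FDR 0.0236). These are low genes: Sp100 went from 0.570 to 1.63 CPM and Oas1a from 1.20 to 0.399 CPM. The call of Sp100 was lost without control library 2 (1.28) or 3 (1.33) or mutant library 1 (1.13), that of Trim30a without mutant library 1 (1.15) or 3 (1.13), and that of Oas1a without control library 1 (-1.37) or 3 (-1.71) or mutant library 2 (-1.28) or 3 (-1.63). Without mutant library 1 the count of called effectors was 13 in place of 20.

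Markers of somatic cells moved in the same comparison. In mutant c-Kit+ cells 8 of 8 Sertoli genes, 7 of 7 stromal and 7 of 7 endothelial genes rose, as did 4 of 7 Leydig, 3 of 5 peritubular myoid and 3 of 4 tested mast cell genes. The Sertoli list summed to 252 to 602 CPM in control and 980 to 1053 CPM in mutant c-Kit+ libraries, the stromal list to 1816 to 2275 and 3293 to 4379, the endothelial list to 54.6 to 80.2 and 118 to 187, the Leydig list to 643 to 1251 and 1177 to 2033 and the peritubular myoid list to 46.1 to 63.9 and 91.4 to 112. The mast cell list summed to 12.5 to 34.0 and 42.0 to 59.6 CPM. Of 10 macrophage genes 1 was called higher and 10 had positive log2 fold changes (median 0.75). Their sum was 24.0 to 62.4 CPM in controls and 61.3 to 84.7 in mutants. Of 9 germ cell genes 2 fell and 0 rose. Of 3 tested lymphocyte genes 1 fell, the list summing to 4.72 to 6.30 and 1.98 to 2.46 CPM, and the 1 tested erythroid gene was not called, at sums of 1.83 to 2.16 and 2.403 to 3.01 CPM. The erythroid gene Hbb-bs was at 0 in all control c-Kit+ libraries. The part of these cells in the differences of Parp9, Parp10, Parp14 and the interferon lists was not tested.

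**Figure D4:**
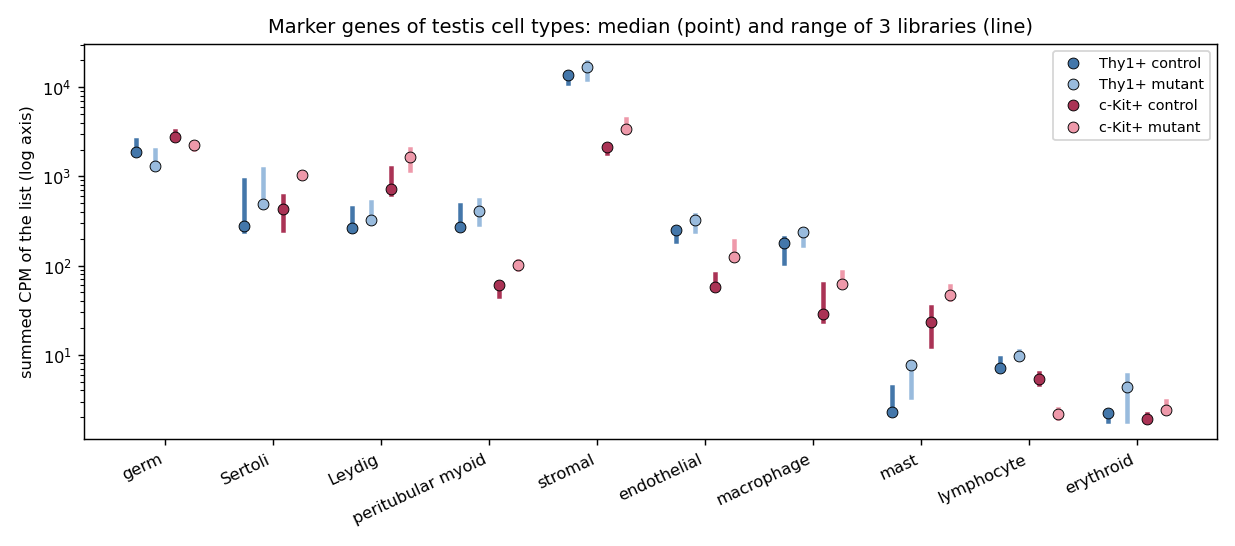
Points are the median and lines the range over 3 libraries of the summed CPM of each marker list, on a log axis. In c-Kit+ cells the Sertoli sums of mutants (980 to 1053 CPM) lie above those of controls (252 to 602 CPM), while the germ cell sums of mutants are below those of controls.

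In Thy1+ cells 0 genes of any list were called in the quasi-likelihood test of edgeR. Among the effectors 1 was called in each of the edgeR exact test, the fit of all 12 libraries and DESeq2. In the quasi-likelihood test the unadjusted p was under 0.05 for 2 Deltex genes, 6 sensors and 2 effectors and for 0 genes of the other lists. The median log2 fold change of the 38 tested effectors was 0.02, with 20 positive and 18 negative, while the median of the 6 members was -0.45 and that of all genes 0.02. In the fit blocked by replicate number, 1 Deltex gene, 1 feedback gene, 2 sensors and 2 effectors were called. Dtx1 (log2 fold change 0.52, edgeR FDR 3.55e-05) and Sting1 (0.51, edgeR FDR 0.02) were among them, and the others are not named here. Of 16 sensors 11 had positive and 5 negative log2 fold changes in the unblocked test. Among lower genes, the effector Oasl2 was at 13.5 to 18.3 CPM in control and 6.90 to 9.20 in mutant Thy1+ libraries. The sensor Dhx58 was at 3.17 to 4.39 and 1.30 to 2.56 CPM. No somatic or germ cell marker was called in Thy1+ cells by the unblocked test, which called 0 of 17416 genes, so this does not show equal cell content. All 9 germ cell genes had negative log2 fold changes (median -0.53). Positive values were found for 8 of 8 Sertoli (median 0.63), 7 of 7 stromal, 7 of 7 endothelial, 9 of 10 macrophage, 6 of 7 Leydig and 4 of 5 peritubular myoid genes. The Sertoli list summed to 242 to 904 CPM in controls and 453 to 1219 in mutants, the stromal list to 11121 to 14495 and 12459 to 19187, the Leydig list to 241 to 439 and 299 to 522, the peritubular myoid list to 266 to 482 and 293 to 539, the endothelial list to 190 to 260 and 246 to 372, the macrophage list to 107 to 203 and 171 to 243 and the mast cell list to 2.24 to 4.34 and 3.39 to 7.98 CPM. Lymphocyte genes summed to 7.16 to 9.11 and 9.66 to 11.2 CPM and erythroid genes to 1.81 to 2.36 and 1.81 to 5.90. The mast cell genes Ms4a2 and Fcer1a were at 0 in all control and all mutant Thy1+ libraries, respectively.

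Between control populations effectors and sensors were among the genes called higher in Thy1+ cells, and 0 of the 12 ligands passed the filter. In the fit of all 12 libraries, where the filter also used the mutant libraries, 1 ligand was called. Of 38 tested effectors 30 were called higher and 0 lower, with a median log2 difference of 1.35, against 20.7% called higher among all genes and a median of 0.03. The counts were 7 of 16 sensors, 6 of 12 receptor and JAK-STAT genes, 4 of 9 regulatory factors and feedback genes and 2 of 4 Deltex genes, each with 0 lower, and Dtx1 became the third called Deltex gene in the blocked fit (edgeR FDR 0.000839). Ifnar2 was at 31.98 ± 6.52 CPM in control Thy1+ and 10.8 ± 2.56 in control c-Kit+ cells (log2 difference 1.59 ± 0.21, edgeR FDR 0.000739). Of the other PARP genes Parp3, Parp4 and Parp8 were higher and 0 were lower, and without control Thy1+ library 1 this count was 1. None of 7 genes for ADP-ribose removal was called in the quasi-likelihood test of edgeR, where 5 had an unadjusted p under 0.05. The count was 1 in the exact test, without the filter and with the block (Macrod2, -0.65, edgeR FDR 0.00211), and 2 in DESeq2, under both other scalings and in the fit of all 12 libraries. It was 3 without control Thy1+ library 2 and 1 without control c-Kit+ library 1 or 3. In mutants 16 of 38 effectors were called higher in Thy1+ cells and 1, Bst2, lower, beside 15.3% of all genes called higher and 5.03% lower, and the count of 17 was 11 without mutant c-Kit+ library 3. Of 16 sensors 6 were higher, and this count was 0 without mutant c-Kit+ library 2 or 3, 3 without mutant c-Kit+ library 1 or mutant Thy1+ library 1 and 2 without mutant Thy1+ library 3. Of the other lists 4 receptor and JAK-STAT genes, 2 regulatory factors or feedback genes, 1 other PARP gene and 1 Deltex gene were higher in mutant Thy1+ cells, and 1 factor, Irf8, was lower.

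Somatic content also separated the populations. In controls 7 of 7 stromal, 8 of 10 macrophage, 4 of 5 peritubular myoid, 3 of 7 endothelial and 5 of 7 tested lymphocyte genes were higher in Thy1+ cells, while 5 of 7 Leydig and 4 of 4 tested mast cell genes were lower. Of 8 Sertoli genes and 2 tested erythroid genes 0 were called. Of 9 germ cell genes 2 were higher and 4 lower. The stromal sums did not overlap, at 11121 to 14495 CPM in Thy1+ and 1816 to 2275 CPM in c-Kit+ controls, nor did the macrophage sums, at 107 to 203 and 24.0 to 62.4 CPM. In mutants 7 of 7 stromal, 9 of 10 macrophage, 4 of 5 peritubular myoid, 2 of 7 endothelial, 6 of 7 lymphocyte and 1 of 9 germ cell genes were higher, and 7 of 7 Leydig, 4 of 4 mast cell and 3 of 9 germ cell genes lower. Parp12 was lower, and the stromal list higher, in Thy1+ against c-Kit+ controls and in mutant against control c-Kit+ cells. Parp9, Parp10 and Parp14 were higher in both, as the stromal list was, and Dtx3l was higher only between the control populations. Parp11 overlapped in both. The germ cell sums, at 2734 to 3204 CPM in control c-Kit+ libraries, were lower in both, at 1761 to 2541 CPM in control Thy1+ and 2036 to 2349 CPM in mutant c-Kit+ libraries. In the Thy1+ genotype comparison 7 of 7 stromal genes had positive and 6 of 6 members negative log2 fold changes, with 0 called. Between control populations the Leydig and mast cell lists were lower in Thy1+ cells, with median log2 differences of -1.45 and -2.955. The part of somatic RNA in the levels of the 6 members was not tested.

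**Figure D5:**
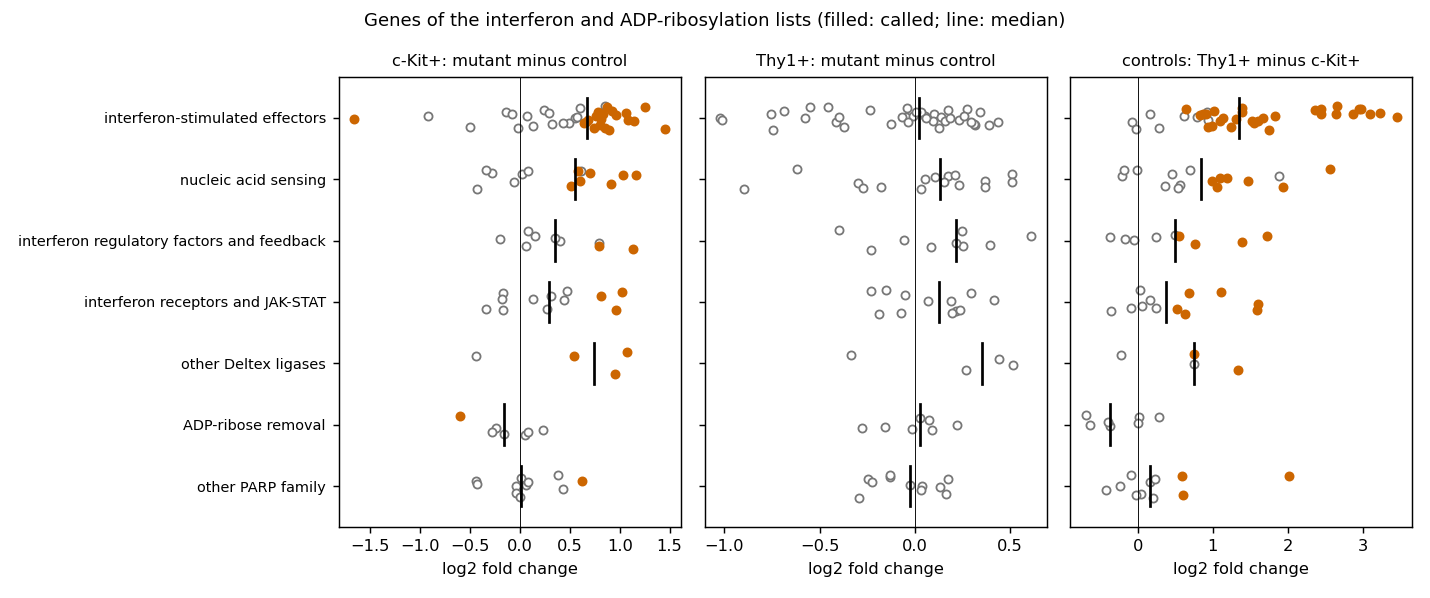
Each point is the log2 fold change of a tested gene of 1 list, filled where it was called, with the list's median as a line, for 3 of the comparisons. Called effectors lie to the right in mutant c-Kit+ cells (19 higher, 1 lower of 36) and in control Thy1+ against c-Kit+ cells (30 higher of 38), and no point is filled in the genotype comparison of Thy1+ cells.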

How the data were processed

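RNA of Thy1+ and c-Kit+ spermatogonia was sequenced as paired ends after directional library preparation. Trimming used Trimmomatic 0.39 and mapping to mm10 used HISAT2 2.1.0; the authors deposited raw counts per gene, with exon positions and length, from featureCounts. The header of the deposited table names version 2.0.3, and its command sets paired ends but neither strand, multiple overlaps nor counting by pair. Of values from 1 to 19, 65.6% to 69.5% were even in a library. The authors' own test was the edgeR exact test. Symbols were assigned to 25275 of 27179 genes by Entrez identifier.

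Counts were tested with the quasi-likelihood F test of edgeR 4.0.16 (R 4.3.3) after TMM normalisation and filterByExpr, with Benjamini-Hochberg adjustment over all tested genes, in 4 comparisons of 3 against 3 libraries and 1 interaction over all 12. A call needed an FDR under 0.05 and, except for the interaction, an absolute log2 fold change over 0.5. The labels do not say whether the libraries of a group came from separate animals, so p-values measure the spread between these libraries. CPM were TMM-normalised over the 12 libraries, and RPKM divided them by the deposited exon length. Errors beside CPM and RPKM are SD, and beside log2 fold changes SE. Alternatives were the exact test, DESeq2 1.42.0, other scalings, no filter, 1 fit of all libraries, a replicate block and leaving out each library. The fit was tested on simulated data. Libraries of a group differed by more than counting error (chi-square per degree of freedom 10.8 to 76.7), so none was counted as a duplicate.

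Deviations from group means of libraries with the same number correlated at 0.528 to 0.774 in the Thy1+ genotype comparison, 0.162 to 0.300 in c-Kit+, 0.202 to 0.514 between control populations and 0.0767 to 0.418 between mutant populations. Above 0.1 in every pair, the numbers were taken to pair libraries, which left out the mutant populations. Libraries with different numbers correlated at no more than -0.037 in the Thy1+ and -0.0476 in the c-Kit+ genotype comparison. Between control populations they reached 0.205, above the lowest same-numbered value of 0.202, so the pairing is less clear there. The members and the lists of pathway and marker genes were chosen with earlier results of these data known. Named were all members, Chd8, Thy1 and Kit, up to 3 called genes with the largest increase and decrease from each pathway list in the genotype comparisons, and the 3 genes most like Parp12 and Parp14 in pattern (mean log2 CPM of at least 1, prior count 2). Ifng, Stat2, Parp3, Parp8, Bst2, Oasl2 and Dhx58, and markers listed at 0, were named after their values were seen. Promoter windows are from RefSeq (GRCm38.p6).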

Additional observations from a re-analysis of the deposited data

Results flagged for a closer look

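Parp14 was flagged because every mutant library lay above every control library in c-Kit+ cells and below every control library in Thy1+ cells, so that the genotype effects pointed in opposite directions. The difference of the effects (c-Kit+ minus Thy1+) was 1.08 on the log2 scale and was not called in the edgeR interaction test across all genes, while DESeq2 (1.00) and the fit with the replicate block (1.07) called it. Since Parp14 was chosen for its pattern, the difference counts as not tested. Of 117 members and list genes examined, 1 other gene, Stat2, which encodes a STAT of the type I interferon response, met the same condition, with a difference of 0.38. Of all 27179 genes 69 met it (0.254%), and 51 of the 15091 genes with a mean of at least 1 CPM (0.338%). Stat2 was at 28.6 to 31.4 CPM in control and 33.8 to 34.1 in mutant c-Kit+ libraries, and at 41.2 to 43.1 in control and 34.9 to 37.8 in mutant Thy1+ libraries. Its edgeR FDR for the interaction was 0.387, and 0.0817 with the replicate block.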

How the results depend on the processing

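Log2 fold changes of the 6 members kept their sign under every alternative in the 4 comparisons of 2 groups; the exception was Parp11 in the difference of genotype effects, from -0.20 to 0.07. In c-Kit+ cells 2 members were called, 4 in the fit of all 12 libraries, and 1 to 3 when a library was left out (1 without control library 3, where the call of Parp10 was lost). Parp12 was called under all 13 alternatives there. In Thy1+ cells 0 genes were called in the quasi-likelihood test, 294 in the edgeR exact test, 384 in DESeq2 and 250 in the fit of all 12 libraries, with 1 member, Parp14, called in DESeq2; leaving out a library gave 0 to 10 genes, 10 without control library 1. For the difference of genotype effects the count of genes was 0, 59 in DESeq2, and 0 to 1 when a library was left out, and that of members 0, and 2 in DESeq2. Between mutant populations 3525 genes were called, and 2341 to 5017 when a library was left out (2341 without mutant c-Kit+ library 2). The cause of these changes was not tested.

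In the fit blocked by replicate number (replicate block), 1414 genes and 1 member were called in Thy1+ cells, and 446 genes and 2 members for the difference of genotype effects, where the numbers do not pair the mutant populations. The block changed no other call of a member. Parp14, Dtx3l and Parp10 rest on the fewest reads in c-Kit+ libraries. Parp14 and Dtx3l had 150 to 262 there, and Parp10 had 157 and 176 in control c-Kit+ libraries 2 and 3.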
